A study of Mus musculus with 4 samples.

Results

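The single-strand lincRNA regions of this array were 2476 genomic intervals, each probed on 1 DNA strand. Not all were clear of genes, since 341 held a gene probe. They are the non-control features named by a chromosome interval that carries only the ending F (plus strand, 1251 regions), only the ending R (minus strand, 1222 regions) or no ending (3 regions). A further 1067 intervals of the array were probed on both strands, so the single-strand regions were 2476 of 3543 lincRNA regions, with 6512 of the 16194 lincRNA probes. The names and probe positions are those of the mouse build mm9 (NCBI37) in the scanner files. The choice of regions used only their names, not their signals.

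The cells were mouse CD4+ T cells, wild type or knockout for miR-155, with 2 arrays of each genotype. Both groups were stimulated through CD3e and CD28 with antibodies, in medium with TGFb and IL-6, which direct naive T cells towards the T helper 17 (Th17) state. Both were then sorted for CD4 and for red fluorescent protein (RFP) reporting IL17F, so all 4 arrays hold reporter-positive cells. The labels give no strain, age or number of animals, and do not say which part of the miR-155 gene was removed or whether replicates came from separate cultures. The p-values below measure the spread between these samples, which may be technical.

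Long intergenic non-coding RNAs (lincRNAs) are transcripts from between protein-coding genes that are not translated into long proteins. Many are transcribed at low levels, in few cell types, and close to genes whose activity they follow. In T helper cells, lincRNAs are found near genes for cytokines and lineage regulators. miR-155 is a microRNA induced when T cells are activated. It is cut from a long non-coding host transcript (Mir155hg, formerly Bic) and lowers the level of messenger RNAs that pair with its seed, the stretch near its 5′ end.

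The mature microRNA missing from the knockout cells is shown first, from RefSeq (GRCm38.p6), with its seed (bases 2 to 8) in capitals.
mmu-miR-155-5p: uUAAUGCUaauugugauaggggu
The 60-base probes below stand for the regions on which the results turn, 5′ to 3′ as in the scanner files and on the strand of their region. The region chr16:77670599-77691642_F had the largest difference between genotypes, and both of its probes are shown, at chr16:77691493-77691552 and chr16:77691555-77691614 (plus strand).
chr16:77670599-77691642_F probe 1: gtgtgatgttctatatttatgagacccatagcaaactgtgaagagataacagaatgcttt
chr16:77670599-77691642_F probe 2: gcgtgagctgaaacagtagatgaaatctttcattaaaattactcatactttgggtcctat
The region chr2:52241435-52245307_F had the next smallest p among the higher regions, and chr13:23487906-23488198_F the smallest among the lower ones. Shown are the brightest probe of the first, at chr2:52241951-52242010, and both probes of the other, at chr13:23488025-23488084 and chr13:23488085-23488144 (all plus strand).
chr2:52241435-52245307_F probe 1: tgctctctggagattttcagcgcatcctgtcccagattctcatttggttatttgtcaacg
chr13:23487906-23488198_F probe 1: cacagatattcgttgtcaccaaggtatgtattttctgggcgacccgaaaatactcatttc
chr13:23487906-23488198_F probe 2: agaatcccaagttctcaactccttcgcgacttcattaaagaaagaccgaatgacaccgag
The next probes lie beside the miR-155 locus, at chr16:84708738-84708797 and chr16:84707486-84707545 (plus strand).
chr16:84708695-84708806_F probe 1: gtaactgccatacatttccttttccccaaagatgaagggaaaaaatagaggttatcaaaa
chr16:84707202-84707748_F probe 2: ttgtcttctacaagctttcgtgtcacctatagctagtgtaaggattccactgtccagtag
The last probes hold one of the motifs searched for below, in capitals: the polyadenylation hexamer AATAAA at chr1:138473515-138473574 (minus strand), or AGCATTA, the match to the miR-155 seed, at chr17:3257793-3257852 (plus strand).
chr1:138473514-138476054_R probe 1: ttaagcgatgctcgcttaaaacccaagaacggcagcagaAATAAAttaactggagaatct
chr17:3213918-3257944_F probe 1: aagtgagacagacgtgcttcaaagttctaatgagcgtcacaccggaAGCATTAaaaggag
None of the other probes printed here holds AATAAA or AGCATTA on its own strand.

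Levels are given as log2 of the background-corrected, deposited processed signal minus the 75th percentile of that array, so a level of 0 is the signal that 75 of 100 probes do not exceed. Between 63.5% and 69.8% of spots per array were well above background by the scanner software's flag, with the lowest share on knockout array 2. Knockout array 1 stood apart in its spatial correction, which the software applied to 0.80% of its spots that were above background and to all such spots on the other 3. All arrays were on 1 slide in 1 scan, with wild type in one row of the slide and knockout in the other, so the effect of the row and that of the genotype cannot be told apart. The T cell genes Cd4, Cd3e, Cd3g, Cd5 and Lck were well above background on all 4 arrays. Il17f, whose reporter was sorted, was at 3.68 and 3.78 in wild type and at 1.52 and 1.92 in the knockout. Cd8a, a marker of another T cell type, was at -3.96 and -3.97 in wild type and at -2.59 and -2.22 in the knockout. Cd8b1, which encodes its partner chain, was at -2.05 and -1.48 in wild type and at -1.82 and -1.97 in the knockout, where the genotypes overlapped. What part this has in the region differences was not tested.

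The regions varied widely in length. The lower and upper quartiles of length were 583 and 13430 bp, the median was 2176.5 bp, the shortest was 62 bp and the longest 7128487 bp. Most were represented by few probes: 1596 regions had 3 probes, 322 had 2 and 428 had 1. The region level is the mean of its probes, and these seldom shared one brightness. In the 2048 regions with more than 1 probe, the brightest and dimmest probe were a median of 2.29 apart on the log2 scale, and 1625 regions spanned 2-fold or more. The regions are not all separate transcripts. By name, 255 overlapped another single-strand region of the same ending, 222 one of the other ending, and 1101 an interval probed on both strands.

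Most regions gave a signal in these cells, which here means at least 1 of the region's probes well above background. This held for 80.8% and 80.0% of regions on the wild-type arrays and for 81.5% and 73.9% on the knockout arrays. Where more than 1 in 2 of a region's probes had to be above background, the shares were 57.5% and 56.4% in wild type and 59.2% and 47.9% in the knockout. By either measure knockout array 2 was the lowest, and with 1 probe enough the other 3 arrays lay within 1.5 percentage points of each other. The knockout mean minus the wild-type mean was -2.71 percentage points, with a two-sided exact permutation p of 1, where 2 arrays against 2 cannot give a p below 0.33. Without knockout array 2 that difference was 1.07 percentage points, so its sign rests on that array. On all 4 arrays 1786 regions were detected, and on none 364. Only 17 regions were detected on both wild-type and neither knockout array, and 2 on both knockout and neither wild-type array. These counts are not set against all features and take in the low detection on knockout array 2, so they are not read as a loss in the knockout.

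Against regions probed on both strands, the single-strand regions were detected less often on each array, with a mean difference of -9.37 percentage points (two-sided exact sign-flip permutation over the 4 arrays, p = 0.13, the smallest that 4 arrays can give). Counted over probes in place of regions it was -1.51 percentage points. The gap differed with probe number. Among regions of 1 probe, 61.8% of single-strand regions and 60.7% of the strands of both-strand regions were detected, as means over the arrays. With 2 probes the shares were 80.1% and 78.4%, and with 5 probes 95.5% and 93.6%, so the single-strand regions were the higher ones there. With 3 probes, as most single-strand regions have, they were 82.1% and 89.3%, a difference of -7.11 percentage points. The median level differed by -0.10 (single-strand minus both-strand, p = 0.13 by the same exact permutation, lower on all 4 arrays), and this size rested on how probes were summarised. It was -0.80 with the brightest probe of each region (p = 0.13), -0.030 with the median over probes, -0.014 with only probes above background and -0.050 without the spots of 2 array corners (exact permutation p = 0.25 for each of these 3).

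Strand made little difference to level. The median over regions was -4.72 for the ending F and -4.86 for the ending R. Region length and level were almost unrelated across the 2476 regions (Spearman's rho 0.056, a description). Probe composition was more closely tied to signal. Probes with under 35% G and C had a median level of -7.16 (203 probes), those with 35 to under 45% -5.28 (2956 probes), those with 45 to under 55% -4.51 (2631 probes), and those with 55% or more -3.54 (721 probes). The share of such probes well above background went from 33.5% in the first of these groups to 79.6% in the last. Over 6511 probes, G and C content and level had a Spearman rho of 0.24, against 0.12 for gene and other probes. Whether the trend comes from the probes or from the amount of RNA was not tested. Levels of different regions are therefore not read here as amounts of RNA. The third probe along the strand was brighter than the first in 835 of 1595 regions with 3 usable probes.

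Levels also differed by chromosome. Chromosome 17 (127 regions) had the highest median, at -4.36 and -4.12 in wild type and -3.82 and -4.10 in the knockout, and ranked first of 20 on all 4 arrays, though second by the mean of the arrays without wild-type array 2. Chromosome 19 (51 regions) followed, at -4.57, -4.24, -4.02 and -4.20, and chromosome 6 (133 regions) at -4.51, -4.30, -4.21 and -4.39. Chromosome 3 (147 regions) was lowest, at -5.76, -5.24, -5.21 and -5.33, and ranked last on 3 arrays and second to last on wild-type array 2. Chromosome 16 (84 regions), which carries the miR-155 gene, was at -5.60, -5.29, -5.17 and -5.12, and ranked last on wild-type array 2, 18 on knockout array 2 and 19 on the remaining pair. The highest and lowest medians over the 4 arrays were 1.26 apart. The quartiles of the regions of chromosome 17 were -5.47 and -2.20, so the spread within a chromosome was larger than that between chromosomes. Neighbours in the order did not separate, as with chromosomes 5 and 8, which had medians of -4.55 and -4.56.

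**Figure D1:**
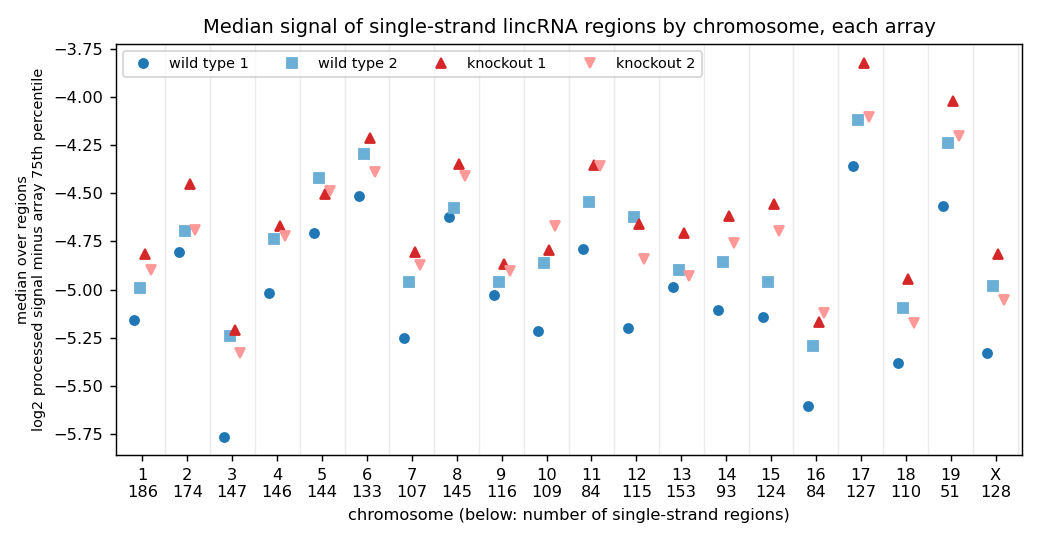
Median over the single-strand regions of each chromosome (x axis, with the number of regions below each name) of the log2 processed signal minus the array's 75th percentile (y axis), 1 point per array. Chromosome 17 is highest and chromosome 3 lowest or next to lowest on each of the 4 arrays, and wild-type array 1 lies at or near the bottom of most columns.

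The order of chromosomes was in part shared with other features of the array. Across the 20 chromosomes, the medians of single-strand regions and of gene probes had a Pearson r of 0.54 and a Spearman rho of 0.60, and those of single-strand and both-strand regions 0.50 and 0.64. These describe points that share arrays and scaling and, for the region types, overlapping intervals. Detection followed a similar order, with 88.7% of regions on chromosome 19 and 86.0% on chromosome 17 detected, against 73.3% on chromosome 3 and 72.7% on chromosome 18, as means over the 4 arrays.

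The 10 brightest regions had mean levels from 4.11 to 8.43, and 4 of them lay on chromosome 17. The brightest, chr17:48068261-48087905_F, was at 8.37 and 8.43 in wild type and 8.57 and 8.36 in the knockout. Next came chr17:17481706-17482457_R, with 7.28, 7.39, 7.32 and 7.29. The files place a probe for Oaz1, which encodes an inhibitor of polyamine synthesis, inside that interval on the same strand, while RefSeq lists Oaz1 on chromosome 10, so copies of the sequence cannot be told apart here. The adjacent regions chr17:39982023-39983277_F and chr17:39983902-39985688_F had means of 7.29 and 6.88 over the arrays. Their probes held 60% to 75% G and C, where the upper quartile of single-strand probes was 45%. Which transcript these probes read was not tested. On chromosome 19, chr19:5801802-5802597_R and chr19:5798135-5800557_R lay 6.03 and 2.36 kb from the probe of Malat1, an abundant nuclear lincRNA, on the same strand. The first was at 6.75, 6.38, 6.36 and 6.65 over wild type 1 and 2 and knockout 1 and 2, and the second at 4.42, 4.29, 4.81 and 4.43. The Malat1 probe was at 3.45, 3.21, 3.61 and 3.05. Whether it and these regions read the same transcript was not tested. The others of the 10 were chr6:116123643-116124550_F, chr4:32294119-32294941_F, chr4:33364774-33364898_R and chr13:114054758-114082339_R, with means of 6.96, 5.97, 4.91 and 4.11. Knockout minus wild type lay between -0.21 and 0.26 in all 10, and none had a limma unadjusted p under 0.05.

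To ask which regions differed between genotypes, limma was fitted over all 25242 features that passed the detection filter (detected, as above, on both wild-type or both knockout arrays). Of the 2476 regions 1943 (78.5%) passed and 533 did not. No region passed a Benjamini-Hochberg adjusted p of 0.05, where the share called over all features was 0%. The smallest adjusted p of a region was 0.304, so every region difference below is one that did not pass. Without that adjustment, 189 regions were higher in the knockout at a limma p under 0.05 (9.73% of those tested, against 7.31% of all features) and 38 were lower (1.96%, against 3.27%). Both knockout arrays lay above both wild-type arrays for 688 regions (35.4%, against 27.6% of all features), and below them for 198 (10.2%, against 19.6%). At least 2-fold differences were seen in 25 regions with the knockout higher (1.29%, against 2.04% of all features) and 6 with it lower (0.309%, against 1.40%).

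The imbalance between higher and lower regions depended on the scaling. With arrays aligned at their medians, which is also the scaling of the deposited value table, at the same unadjusted threshold 90 regions were higher and 92 lower (49.5% higher, against 83.3% with the 75th percentile). The median knockout minus wild-type difference over tested regions was 0.16 with the 75th percentile, where that of all features was 0.04. With median scaling it was 0.0042, and that of all features -0.12. Both of these scalings shift all features of an array alike, so the gap between regions and all features is the same by construction. With quantile scaling the gap was smaller, with medians of 0.0098 for the regions and -0.0068 for all features. Regions probed on both strands had a median of 0.20 with the 75th percentile, and 76.1% of them were above 0, against 70.8% of the single-strand regions. The region median was 0.29 for knockout 1 minus wild type 1, 0.11 for knockout 1 minus wild type 2, 0.19 for knockout 2 minus wild type 1 and 0.033 for knockout 2 minus wild type 2. The 2 wild-type arrays themselves differed by a median of 0.14 (array 2 minus array 1). Without wild-type array 1, 75 regions were higher and 27 lower; without wild-type array 2, 279 and 25; without knockout array 1, 119 and 49. With normexp background correction in place of the scanner software's, 936 were higher and 15 lower.

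The difference also went with brightness. Tested regions were cut into 3 groups of equal size by their mean level. In the dimmest (below -4.94) the median difference was 0.29, in the middle one 0.17 and in the brightest (above -3.29) 0.06. Gene and other probes in the same ranges of level had medians of 0.20, 0.17 and -0.0046. The wild-type arrays differed by 0.30, 0.18 and 0.03 in the 3 groups of regions (array 2 minus array 1). Among the dimmest regions 94 of 648 had an unadjusted p under 0.05 with the knockout higher and 12 with it lower, and among the brightest 39 and 13 of 648. As shares these were 14.5% and 1.85% of the dimmest and 6.02% and 2.01% of the brightest. Gene and other probes in the same ranges had 12.2% higher and 5.02% lower among the dimmest and 5.22% and 3.43% among the brightest. The part of background correction in this was not tested.

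**Figure D2:**
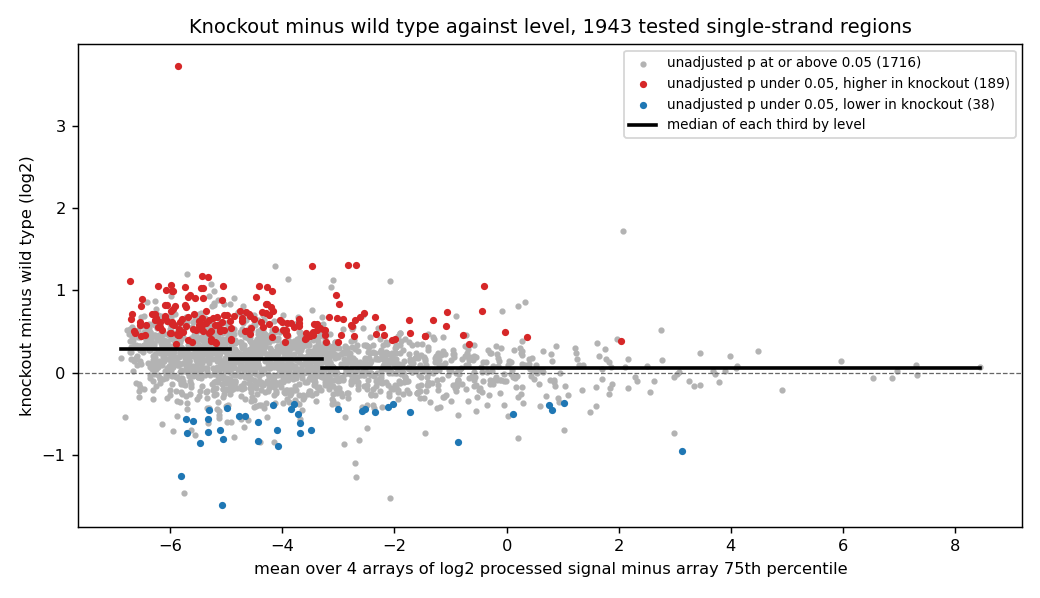
Knockout minus wild type (log2, y axis) against the mean level over the 4 arrays (x axis), 1 point per tested region. Red and blue points are the 189 higher and 38 lower regions with a limma unadjusted p under 0.05, and black bars are the medians of 3 equal groups by level, which go from 0.29 to 0.06 as level increases.

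Probes of one region often disagreed. Of the 1679 tested regions with more than 1 probe, 820 had the same sign of difference on every probe. Among the 198 of these with an unadjusted p under 0.05, 176 did.

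The region that differed most was chr16:77670599-77691642_F, a 21044 bp interval of which both probes sit at the 3′ end (printed above). It was at -7.88 and -7.56 in wild type, not well above background, and at -4.56 and -3.42 in the knockout, where it was detected on both arrays. Both knockout arrays were thus far above both wild-type arrays, and the knockout arrays differed by more than 1 log2 unit from each other. Knockout minus wild type was 3.73 ± 0.42 (SE, n = 2 against 2; limma adjusted p = 0.304). Since wild type was not above background, its level was set to the lowest signal that counted as above background on each wild-type array. Against that level the knockout signal was 4.59-fold higher. Some brighter probes were not counted as above background, so this is not a strict lower bound. The 2 probes differed by 4.28 and 3.18.

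The nearest gene probe, 169 kb upstream on the same strand, was that of Mir99ahg, the long non-coding host of the microRNAs miR-99a, let-7c and miR-125b. Mir99ahg was at -6.90 and -7.60 in wild type and -3.57 and -3.52 in the knockout, a difference of 3.71 ± 0.27 (SE; limma adjusted p = 0.304), and was above background on the knockout arrays only. Against the same lowest signals it was 6.26-fold higher, again not a strict lower bound. Both passed the detection filter through the knockout arrays alone, and how their differences compare cannot be read below background. The region lies 7.03 Mb from the probe of Mrpl39, the gene beside miR-155, on the same chromosome.

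The other 11 of the 12 higher regions with the smallest p were between 1.68-fold and 2.48-fold higher, with limma adjusted p-values from 0.304 to 0.365. The region chr2:52241435-52245307_F was at -3.36 and -3.62 in wild type and -2.16 and -2.19 in the knockout (1.31 ± 0.15, SE). All 3 of its probes were higher, by at least 1.18. Its nearest gene probe, 9.14 kb away on the other strand, was that of Arl5a, a small GTPase of vesicle traffic, with a difference of 0.43 ± 0.17. On chromosome 5, chr5:15146475-15170100_F was at -3.10 and -3.57 in wild type and -2.06 and -1.99 in the knockout (1.31 ± 0.20), with all 4 probes higher. It lies 16.9 kb from the probe of Speer4d, one of a family of near-identical testis genes.

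Among the higher regions 1 had no strand ending, chr3:034856791-034869544. Its probes lie outside the interval in its name, 3.08 kb from the probe of Sox2ot, the transcript overlapping the stem cell factor gene Sox2. It was at -5.83 and -5.99 in wild type and -4.93 and -4.58 in the knockout (1.16 ± 0.18), but its probes ranged from -0.22 to 1.99. The region chr3:95502970-95503399_R, near Adamtsl4, had a difference of 0.84 ± 0.12 as a mean of probes between -0.21 and 2.17. By the median over its probes, it was -0.21. The bright region chr8:129336539-129400338_R was at -0.75 and -0.87 in wild type and -0.01 and -0.11 in the knockout (0.75 ± 0.13). Its probes gave 0.72 to 0.78, and the gene probe inside it, A630001O12Rik on the other strand, 0.39 ± 0.18.

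The remaining higher regions were dim in both genotypes, with wild-type means from -6.16 to -4.69. They were chr12:4579206-4583562_R (0.83), chrX:18734106-18744367_R (1.03), chr2:143991240-143991597_F (0.75), chr8:67550064-67560987_R (1.99-fold, with 1 probe), chr19:21368435-21369500_R (0.80) and chr1:138473514-138476054_R (1.03). The last lies 45.4 kb from the probe of Kif14, a kinesin of cell division that itself differed by 0.30 ± 0.26. Some of these means drew on probes above background on no array. On chromosome 12 such a probe gave 1.24 and the detected one 0.42. On chromosome 19 such probes gave 0.48 and 1.47 and the detected one 0.44. On chromosome X such a probe gave 1.19, beside 1.19 and 0.71. On chromosomes 2 and 1 such a probe gave the smallest difference of its region, 0.065 and 0.54.

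Among the lower regions, chr13:23487906-23488198_F was at -4.00 and -4.53 in wild type and -5.88 and -5.87 in the knockout, where it was detected on 1 array. The difference was -1.60 ± 0.22 (SE; limma adjusted p = 0.319), knockout array 2 being below background, and its probes gave -2.27 and -0.94. The nearest gene probe was that of Abt1, a basal transcription activator, 22.0 kb away. The region chr7:69005291-69007813_R near A230057D06Rik had 1 probe, at -5.36 and -5.01 in wild type and -6.27 and -6.61 in the knockout, where it was not above background. Taken against the lowest signals above background there, it was 1.07-fold lower, again not a strict lower bound.

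Other lower regions lay near or over named genes. The region chr16:43635730-43639104_F, 10.0 kb from the probe of Tigit, an inhibitory receptor of T cells, was at -0.50 and -0.38 in wild type and -1.46 and -1.10 in the knockout (-0.84 ± 0.18). Tigit, on the other strand, differed by 0.36 ± 0.16, so region and gene went in opposite directions. On the strand of the region, the nearby region chr16:43623175-43624069_F and the gene Zbtb20 were lower as well, by -0.40 and -0.45 (below). The region chr3:95461528-95461939_R, 3.60 kb from the probe of Mcl1, a survival factor, was at -4.40 and -4.41 in wild type and -4.91 and -4.95 in the knockout (-0.52 ± 0.12), while Mcl1 differed by -0.04 ± 0.12. The region chr14:65430484-65432413_R, over the gene Hmbox1, was at 1.09 and 0.99 in wild type and 0.59 and 0.58 in the knockout (-0.45 ± 0.13). Hmbox1, which encodes a homeobox protein, differed by -0.17 ± 0.17.

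Of the 11 lower regions described 6 had a positive difference with normexp background correction: those near A230057D06Rik, Tmcc2, Mcl1, Gm5148, Slc10a1 and Hdac11, at values from 0.018 to 0.16. The remaining lower regions had differences between -0.83 and -0.46. They were chr1:134245856-134246607_F near Tmcc2 (-0.83, with 1 probe), chr3:37659958-37665945_F near Gm5148 (-0.73), chr1:6199946-6200603_R over 4732440D04Rik (-0.69), chr6:91133122-91133347_R near Hdac11 (-0.61), chr12:82109311-82109694_R near Slc10a1 (-0.56) and chr17:7002731-7032535_R over Gm2885 (-0.46). The transcripts 4732440D04Rik and Gm2885, on the strand of their regions, differed by -0.42 ± 0.14 and -0.41 ± 0.13, in the direction of the regions.

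**Figure D3:**
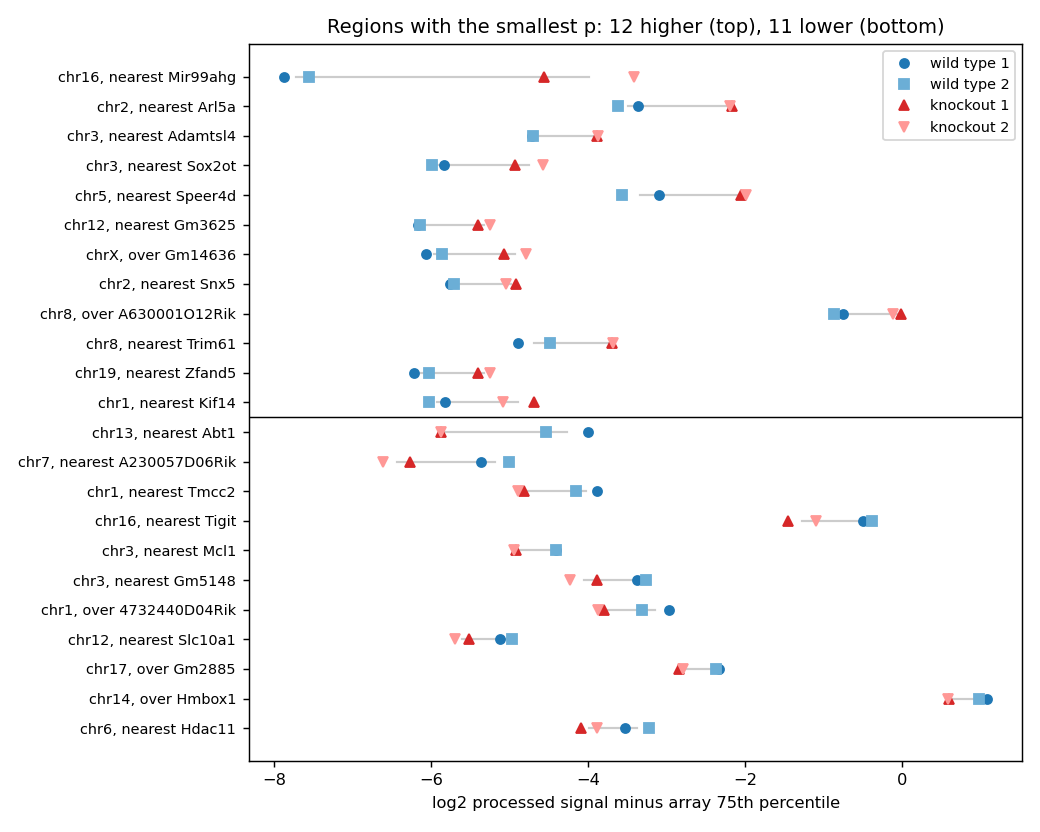
Level on each array (x axis, log2 processed signal minus the array's 75th percentile) of 12 higher (top) and 11 lower (bottom) regions with the smallest p and no overlap between genotypes, labelled by chromosome and nearest gene probe. Grey bars join the genotype means, and the region nearest Mir99ahg has the widest gap, 3.73.

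The miR-155 host gene lies beside Mrpl39 in RefSeq's gene order, and 3 single-strand regions sit 9.17 to 10.2 kb from the Mrpl39 probes on that side. An interval probed on both strands overlaps them. RefSeq has miR-155 on the plus strand, which is that of the regions here with the ending F. Whether those regions read its host transcript was not tested. The 1-probe region chr16:84708695-84708806_F was among the brighter ones, at 3.84 and 3.36 in wild type and 3.04 and 2.24 in the knockout. Both knockout arrays were below both wild-type arrays, by -0.95 ± 0.34 (SE; limma unadjusted p = 0.045, adjusted p = 0.466). The region chr16:84707202-84707748_F was at 0.92 and 0.28 in wild type and 0.33 and -0.71 in the knockout (-0.80 ± 0.43), and here the genotypes overlapped. On the minus strand between them, chr16:84708005-84708675_R was at -3.60 and -3.88 in wild type and -4.03 and -5.12 in the knockout (-0.84 ± 0.40).

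In each of these 3 regions knockout array 2 was the lowest of the 4. All 3 were still detected on both knockout arrays, by at least 1 probe. In the minus-strand region only the probe with a difference of -0.40 was above background on all 4 arrays. Its other probes, at -6.55 and -4.94 on knockout array 2, were under that array's lowest signal above background (-4.90). They gave -1.57 and -0.55. Since the labels do not place the deletion, these probes do not check the genotype. Mrpl39, which encodes a mitochondrial ribosomal protein, was at -0.73 and -0.58 in wild type and -1.46 and -1.58 in the knockout (-0.86 ± 0.14; limma adjusted p = 0.335). The next regions by distance were chr16:86770170-86874921_R, not above background on any array, and chr16:90008176-90011357_R and chr16:90103524-90104408_R, with differences of 0.12 ± 0.16 and 0.22 ± 0.19 (SE). On chromosome 16, with an unadjusted p under 0.05, 15.4% of 65 tested regions had the knockout higher and 6.15% had it lower, against 9.73% and 1.96% of all tested regions and 7.31% and 3.27% of all features.

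Regions near T cell genes were examined through a list of 97 genes for cytokines, receptors, lineage regulators and the miR-155 neighbour Mrpl39. Of these, 94 had a positioned probe and 16 had a single-strand region within 100 kb, which gave 24 regions. Of the 22 tested, 4 had an unadjusted p under 0.05, 1 with the knockout higher and 3 with it lower (18.2%, against 10.6% of all features), and 0 at an adjusted p under 0.05. Their median difference was 0.01, with 11 above and 11 below 0. The higher one, chr1:69555180-69555559_R, lies 22.3 kb from the probe of Ikzf2, the transcription factor Helios of regulatory T cells, on the same strand. It was at -4.67 and -5.23 in wild type and -4.11 and -3.68 in the knockout (1.05 ± 0.27, SE), and Ikzf2 differed by 0.89 ± 0.24. A second region on that strand, chr1:69566918-69567447_R, 10.4 kb from Ikzf2, differed by 0.22 ± 0.16.

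The 3 lower ones were the Tigit and miR-155 neighbours above and chr16:43623175-43624069_F, which was at 0.88 and 1.04 in wild type and 0.60 and 0.53 in the knockout (-0.40 ± 0.14). Also close to Tigit, it lies 4.09 kb from the probe of Zbtb20, a zinc finger repressor on the same strand, which differed by -0.45 ± 0.14. By the Th17 cytokine gene Il17a, 51.8 kb away on the same strand, chr1:20669157-20672643_F was at -7.28 and -6.45 in wild type and -6.43 and -5.93 in the knockout (0.68 ± 0.35), detected on 1 wild-type and both knockout arrays. Il17a itself was lower in the knockout, by -3.17 ± 0.52, the opposite sign. The region had a limma unadjusted p of 0.12. Its probes that were above background on no array gave 0.54 and 0.44, and its remaining probe 1.07.

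The other 7 of the 15 tested regions closest to a listed gene had differences between -0.19 and 0.27. They were chr10:44151831-44152409_F near Prdm1 (0.22, where the gene for the repressor Blimp-1 differed by 1.02 ± 0.19), chr8:74820025-74833350_F near Klf2 (0.16), chr11:117792051-117811334_R near Socs3 (-0.19), chr9:114416254-114416844_R near Ccr4 (0.27), chr16:23989160-23992539_F near Bcl6 (0.03), chr11:53574182-53574644_R near Il5 (0.25) and chr15:61870759-61938796_F near Myc (-0.01). The standard errors of these differences ran from 0.13 to 0.18. The 7 tested regions farther off had differences from -0.60 to 0.33, and none had an unadjusted p under 0.05.

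**Figure D4:**
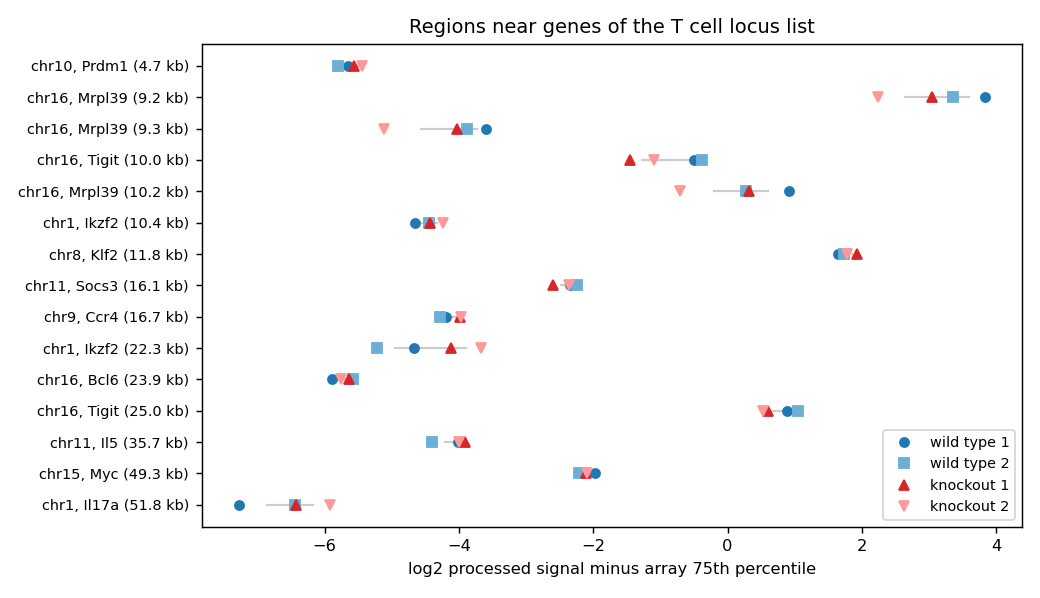
Level on each array (x axis, log2 processed signal minus the array's 75th percentile) of the 15 tested regions closest to a gene of the T cell list, labelled with chromosome, gene and distance to its nearest probe. The regions 9.2 to 10.2 kb from Mrpl39 have knockout array 2 as the lowest point, and most others have both genotypes within a narrow band.

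Whether regions differed in step with their neighbours was described from the nearest gene probe, a median of 17.7 kb from the region. Inside 341 regions lay at least 1 gene probe, and in 263 at least 1 on the region's own strand. Over 162 tested regions with a tested gene probe inside on the same strand, the region difference and the gene difference had a Pearson r of 0.43 and a Spearman rho of 0.47. Over 70 with that probe on the other strand, r was -0.13 and rho 0.03. Over all 1595 pairs at any distance r was 0.20 and rho 0.20. These are descriptions, since each pair shares the same 4 arrays and a probe of either kind may bind one transcript. Of the 2476 nearest genes, 13 are on another chromosome in RefSeq.

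**Figure D5:**
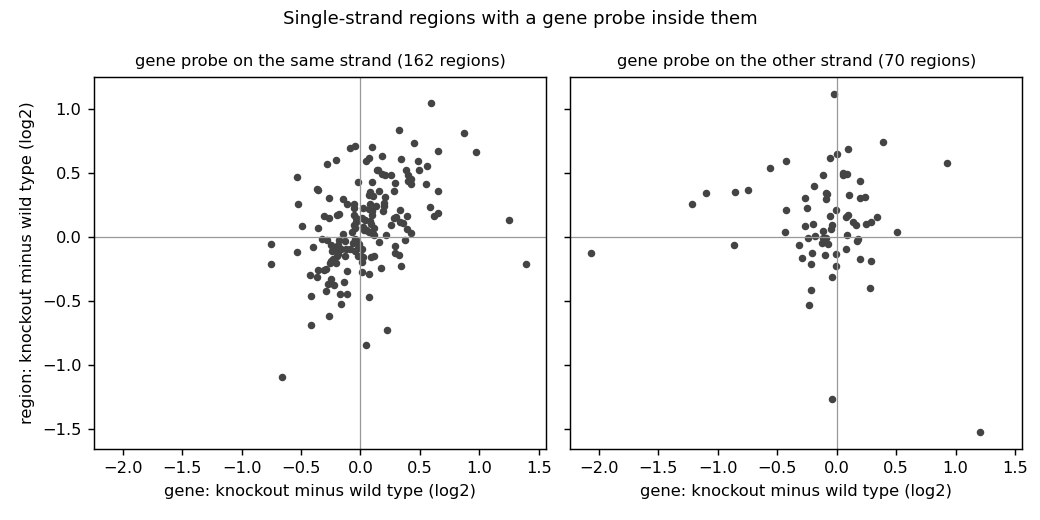
Knockout minus wild type of a region (log2, y axis) against that of the gene whose probe lies inside it (log2, x axis), 1 point per region, with the gene probe on the region's strand (left, 162 regions) or on the other (right, 70 regions). The left cloud slopes upward (r 0.43) and the right one does not (r -0.13), with a few points far from the rest at the right.

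The probe sequences were searched for the polyadenylation hexamer AATAAA and for AGCATTA, the complement of the miR-155 seed, with the reverse complements TTTATT and TAATGCT for the other strand. Neither motif contains the other. AATAAA was in 4.48% of single-strand probes, 3.53% of both-strand probes and 12.6% of gene and other probes, and TTTATT in 3.09%, 2.98% and 4.03%. Gene probes are usually designed near the 3′ end of a transcript. At least 1 probe with AATAAA was present in 285 regions. Of the 218 tested, 38 (17.4%) had an unadjusted p under 0.05 with the knockout higher and 3 (1.38%) with it lower, against 7.31% and 3.27% of all features. Of the 1725 tested without it, 151 (8.75%) and 35 (2.03%) did, while the median differences were 0.17 and 0.16.

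Among the dimmest of the 3 groups by level the shares of higher regions were 29.3% of 82 and 12.4% of 566, and among the brightest 7.35% of 68 and 5.86% of 580. Over all tested regions with and without the hexamer, the shares of higher ones were 7.80% and 4.23% with median scaling. With normexp background correction they were 51.4% and 47.8%, so the size of this contrast depended on the processing. The 12 higher regions above include 3 with the hexamer, on chromosomes 19, 2 and 1, and in the first 2 the probe that holds it was not above background on any array. A match says only that the letters are in the probe.

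AGCATTA was in 25 single-strand probes (0.384%) and TAATGCT in 28 (0.430%), against 0.385% and 0.327% of gene and other probes. The 25 probes belonged to 25 regions, of which 20 were tested. With a limma unadjusted p under 0.05, 0 of these had the knockout higher and 1 had it lower, where the shares over all features were 7.31% and 3.27%, and their median difference was -0.12, against 0.17 for the 1923 tested regions without it. None passed an adjusted p of 0.05. The lower one, named because it was the only call and chosen after its values were seen, was chr17:3213918-3257944_F (probe printed above). It was at 0.35 and 0.38 in wild type and -0.28 and 0.03 in the knockout, and both its probes were lower, by -0.53 and -0.46. The probes cover a small part of each transcript, so a region without the letters in its probes may hold them elsewhere.

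The extremes of probe number were 3 regions with 10 probes, chr2:119412770-119435110_R, chr6:13801450-13853450_F and chr6:133054025-133069850_R. They had mean levels of -3.70, -5.86 and -4.60, and single probes within them differed between genotypes by -1.36 to 1.48 while the region means differed by -0.13 to 0.10. Also without a strand ending was chr17:012941161-012944859, with a probe of the imprinted antisense transcript Airn inside. It was at -1.43 and -1.63 in wild type and -1.26 and -0.93 in the knockout, higher in both knockout arrays by 0.44 ± 0.18 (SE), without passing an unadjusted p of 0.05.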

How the data were processed

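RNA was measured on 4 one-colour Agilent arrays (2 wild type, 2 knockout). The authors' deposited scanner files hold background-subtracted intensity per spot (gProcessedSignal) and, per the submitters' processing notes, were made with Agilent Feature Extraction 10.5.1.1. The same deposited files give a detrending surface as a ratio per spot, used for knockout array 1 in one alternative. The authors' deposited value table holds log2 values, which equal log2 processed signal plus 1 constant per array, each array's median being 5.54; its scale and centring were found this way and are not stated. Control spots and outlier flags were left out, spots of a probe averaged, the 75th percentile of each array subtracted on the log2 scale, and probes averaged per region or gene name. limma 3.58.1 (lmFit, eBayes; R 4.3.3) was fitted over all features detected on both wild-type or both knockout arrays, with Benjamini-Hochberg adjustment, and the scripts were tested on simulated data. Groups share replicate numbers, but same-numbered arrays did not deviate together (r = 0.00058), so no block was used. Gene names were updated through RefSeq (GRCm38.p6) by accession for 26762 probes, symbol for 3819 and synonym for 639; 8267 kept the file's name. Regions named in the text were the 12 higher and 12 lower with the smallest p and no overlap, the 10 brightest, the 15 nearest a T cell list gene, the 6 nearest the miR-155 gene, and the extremes of probe number; exceptions are named, and 2 regions that this rule takes in are not reported here. The regions and lists were chosen with earlier results of these data known. Other scalings, background corrections, filters, probe summaries, prior settings, single arrays left out and a replicate block were tried. With 2 arrays a group, their number limits the precision.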

Additional observations from a re-analysis of the deposited data

How the results depend on the processing

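No single-strand region passed an adjusted p of 0.05 under any setting tried. The counts of higher and lower regions below are at a limma unadjusted p under 0.05, without the matching shares of all features. Median scaling and the deposited value table gave equal values: 90 higher and 92 lower, 49.5% higher, median 0.0042, and near Bcl6 -0.13 and for chr16:90008176-90011357_R -0.040 in place of positive differences. Quantile scaling gave 97 and 92, 51.3%, median 0.0098, and -0.0010 near Prdm1, -0.14 near Bcl6 and -0.026 for chr16:90008176-90011357_R. Normexp background correction gave 936 higher and 15 lower (98.4%), a chromosome range of 0.377 with chromosome 17 second, and positive values for lower regions: near Tmcc2 0.022, Socs3 0.039, Myc 0.053, Gm5148 0.018, Mcl1 0.10, Hdac11 0.058, Slc10a1 0.16 and A230057D06Rik 0.082. A trend in the prior gave 91 and 20. The chromosome range was 1.45 with the brightest probe, 1.40 with the median over probes, 0.787 with only probes above background and 1.41 without the spots of 2 array corners. With the brightest probe the region near Hdac11 was at 0.060; with the median over probes those near Ikzf2 (10.4 kb), Myc, Bcl6 and Adamtsl4 were at -0.28, 0.060, -0.32 and -0.21. The detection gap to both-strand regions was 1.11, 1.72 and 1.89 points with 1, 2 and 5 probes, -7.11 with 3 probes and -1.51 by share of probes, settings added after seeing the data. Neighbour r was 0.16 within 100 kb and 0.24 within 10 kb. The cause of these changes was not tested.

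Leaving out 1 array at a time gave 75 to 279 higher, 25 to 49 lower and 70.8% to 91.8% higher, a detection difference of -6.48 to 1.07 points, 0.12 near Myc without wild-type array 1, and -0.13 to 0.20 near Bcl6, below 0 without that array or without knockout array 1. Chromosome 17 ranked second without wild-type array 2, and chromosome 3 ranked 19 without knockout array 2. With the replicate number as a block, 150 regions were higher and 28 lower, and as without it none passed an adjusted p of 0.05; slide columns carry the same numbers, so a slide-column block is the same fit. Detection uses the software's flag, so the scaling settings do not bear on it. Dim regions limit what these arrays show: 364 regions were above background on no array.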
